A study of Danio rerio with 2 samples.

Results

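Endocardial cells (EdCs) of the injured zebrafish ventricle were gated on transcripts of nppc, chst1, ntn1b, aqp8a.1, spock3 and cyp1b1 in single-cell RNA-seq at 120 hours post-cryoinjury (hpci). Barcodes were kept above 300 detected genes, unless over 70% of their unique molecular identifiers (UMIs, each counting 1 captured transcript) came from mitochondrially encoded genes. A kept barcode was a gated EdC when at least 2 of the 6 genes were detected with at least 3 UMIs in sum, and their share of its UMIs was at least 3 times the pooled share of 0.0575% over all kept barcodes. It was dropped when this fold was higher for bmp6, edn2, vwf, bmp16 and slit2 in sum (the vwf set) or for rbp2a, plvapb, cxcl12b, ca16b and rbp7b in sum (the coronary set). The gate took 735 of 10763 kept barcodes, which were 489 of 7174 in the mutant library and 246 of 3589 in the wild-type library. The cells were thus selected on the measured UMIs of these 16 genes, whose levels are given below as a description only.

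The endocardium is the endothelium that lines the chambers of the heart, between the blood and the myocardium. It senses flow through Klf2 factors and Notch receptors and signals to cardiomyocytes with secreted ligands. After injury of the zebrafish heart, EdCs near the wound become activated, make retinoic acid with the enzyme Aldh1a2 and cover the injured tissue.

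The study asked which cell types of the injured ventricle differ between cd74a; cd74b double mutants and wild type, including the stress response genes of EdCs and the genes of antigen presentation. The mutant library pooled the border zone and injured tissue of 4 ventricles (2 females, 2 males) from AB strain adults homozygous for cd74a bns454 and cd74b bns456, CRISPR-Cas9 alleles that every cell of the fish carries. The wild-type library pooled the same tissue of 4 ventricles (2 females, 2 males) from wild-type AB adults bred from related sibling batches, and the fish of the study were 3 to 12 months old, with no age given per pool. All ventricles were cryoinjured and taken at 120 hpci, dead cells were removed by levitation, and each pool was run on its own droplet lane, so the fish of a pool could not be told apart. Each genotype had a single library, so genotypes could not be tested against each other and no p-value is given. Values are UMIs per 1000000 non-mitochondrial UMIs (CPM) summed over the cells of a set, and all intervals are exact 95% intervals that cover counting error only.

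The deposited matrices held 15142 mutant and 4607 wild-type barcodes with 22991961 and 7395919 UMIs. The libraries had 15 barcode sequences in common, 7 of them among kept barcodes and 0 among gated EdCs. The median mitochondrial share of other kept barcodes was 22.5% in the mutant library and 14.9% in the wild-type library, and ribosomal protein genes took 49.6% and 41.0% of their non-mitochondrial UMIs. Gated EdCs were shallow, with a median of 1184 non-mitochondrial UMIs and 390 genes in mutants and 1010.5 UMIs and 401 genes in wild type. Their median mitochondrial share was 19.9% in mutants and 15.7% in wild type, and their ribosomal protein share was 51.5% and 43.1%. In sum the gated EdCs held 696803 mutant and 307618 wild-type non-mitochondrial UMIs, which sets the counting error of every value below. The part of these differences between the libraries in the genotype ratios was not tested.

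The targeted genes were low in the mutant library. cd74a (ENSDARG00000009087), a gene of the invariant chain that escorts MHC class II molecules, had 33.0 CPM in mutant EdCs (interval 20.9 to 49.5, 23 UMIs) and 263 CPM in wild-type EdCs (209 to 327, 81 UMIs). cd74b (ENSDARG00000036628), its paralogue, had 21.5 CPM in mutant EdCs (15 UMIs) and 150 CPM in wild-type EdCs (46 UMIs). The same held in other kept barcodes, where cd74a had 90.9 CPM in the mutant and 1225 CPM in the wild-type library. The mutations lie in exon 1 of cd74a and exon 2 of cd74b while the assay counts transcript 3′ ends, so these levels match the labels without showing the mutations themselves.

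The pair aqp8a.1, a water channel gene (ENSDARG00000045141), and spock3, the gene of the secreted proteoglycan testican 3 (ENSDARG00000070266), carried the gate. Both were detected in 436 of the 489 mutant EdCs (89.2%) and in 226 of the 246 wild-type EdCs (91.9%). aqp8a.1 stood at 3299 CPM in mutant EdCs (interval 3166 to 3437) and 3404 CPM in wild-type EdCs (3201 to 3616). spock3 stood at 1728 CPM in mutant EdCs (1632 to 1828) and 3137 CPM in wild-type EdCs (2942 to 3341). The other gate genes were sparse. nppc, which encodes C-type natriuretic peptide (ENSDARG00000068126), had 191 CPM in mutant and 280 CPM in wild-type EdCs, from 133 and 86 UMIs, and was detected in 70 and 30 cells. chst1, a carbohydrate sulfotransferase gene (ENSDARG00000088593), had 112 CPM in mutant and 176 CPM in wild-type EdCs. ntn1b, which encodes the secreted guidance cue netrin 1 (ENSDARG00000022531), had 136 CPM in mutant and 124 CPM in wild-type EdCs. cyp1b1, a cytochrome P450 gene (ENSDARG00000068934), had 105 CPM in mutant and 124 CPM in wild-type EdCs. A typical gated cell was thus an aqp8a.1 and spock3 cell, and only a minority also held nppc.

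**Figure D1:**
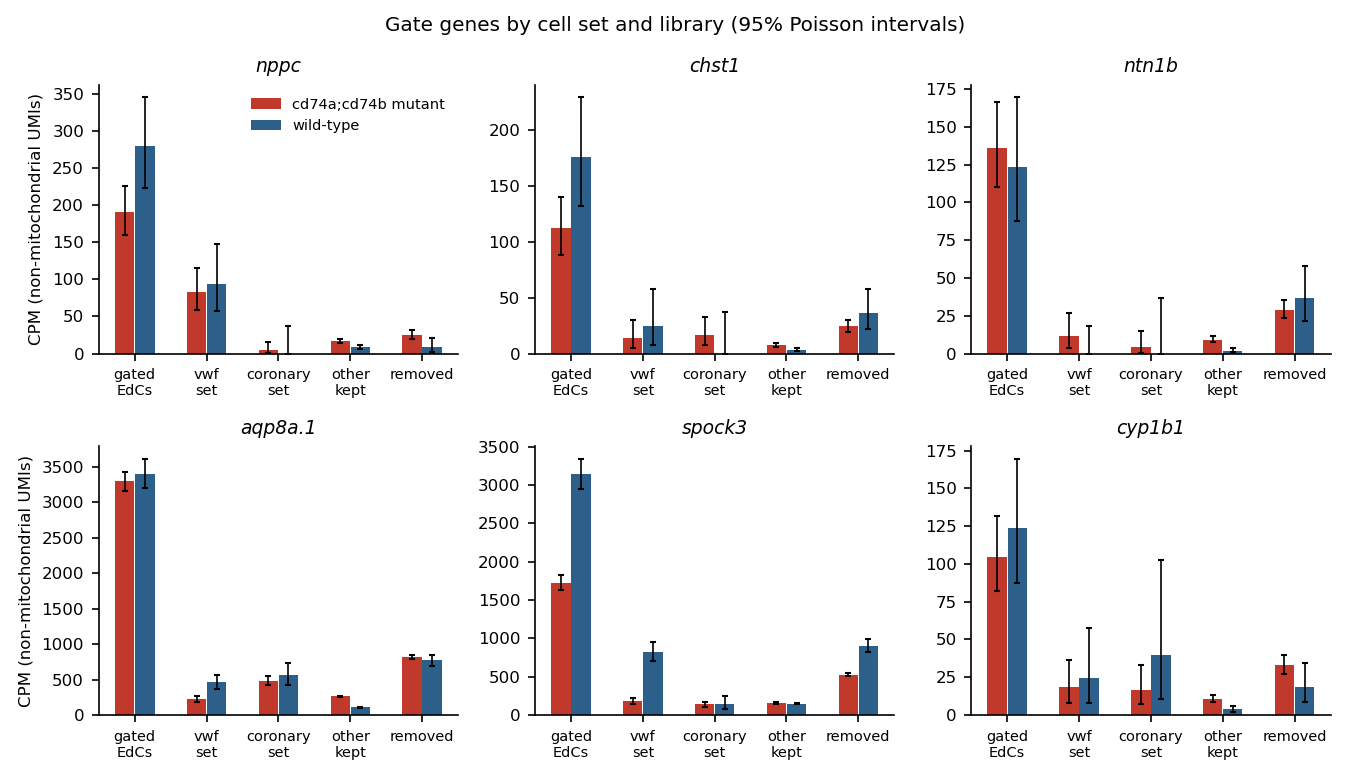
Bars give the CPM of each of the 6 gate genes (y axes, CPM of non-mitochondrial UMIs) in gated EdCs, the vwf set, the coronary set, all other kept barcodes and the barcodes removed for few genes or many mitochondrial UMIs, mutant library left and wild-type library right, with exact 95% Poisson intervals. spock3 in gated EdCs is lower in the mutant bar (1728 CPM) than in the wild-type bar (3137 CPM), while aqp8a.1 is close in both (3299 and 3404 CPM).

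The gate separated the libraries unequally. In other kept barcodes the 6 genes summed to 464 CPM in the mutant library and 273 CPM in the wild-type library, against 5571 and 7243 CPM in gated EdCs. At least 1 gate gene was detected in 3098 mutant barcodes (43.2% of those kept) and in 999 wild-type barcodes (27.8%). The gated EdCs held 47.2% of all gate UMIs among kept barcodes in the mutant library and 61.5% in the wild-type library. The level of gate transcripts outside the gate differed between the libraries, and its part in the genotype ratios of the gated cells was not tested.

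Among the gated EdCs, 315 mutant and 145 wild-type cells had 2 gate genes, 123 and 81 had 3, 42 and 16 had 4, and 9 and 4 had 5, while no cell had all 6. The fold of the gate share ran from 3.01 through a median of 5.99 to 33.5 in mutant cells and from 3.07 through 8.92 to 44.6 in wild-type cells. Just inside the threshold, 95 mutant and 16 wild-type cells had a fold of 3 to 4. Just outside it, 59 mutant and 8 wild-type barcodes met the other criteria with a fold of 2 to 3. Barcodes with 2 gate genes but only 2 UMIs numbered 33 and 23, and those with 3 or more UMIs of 1 gate gene numbered 72 and 29. The drop step removed 66 mutant and 45 wild-type barcodes, of which 53 and 41 had the higher fold for the vwf set.

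**Figure D2:**
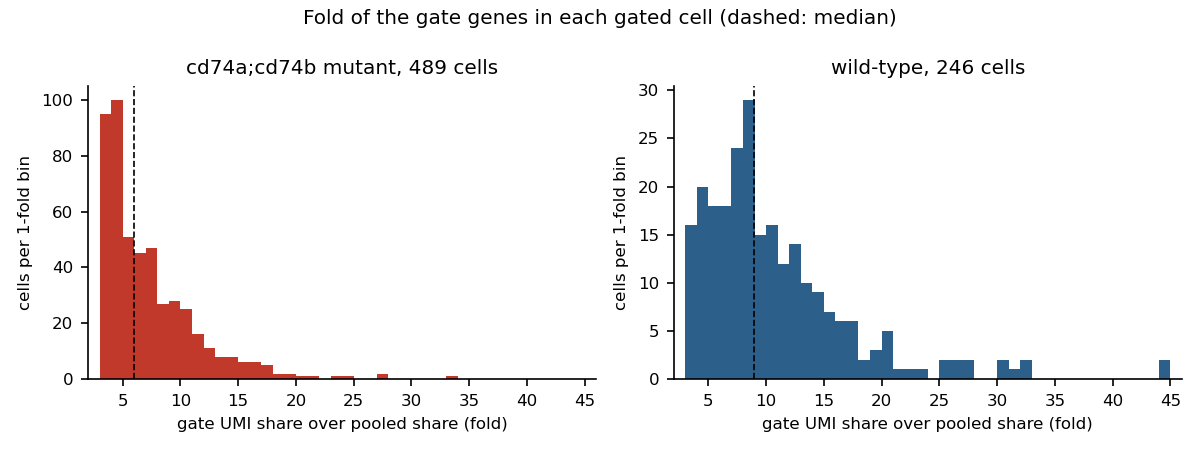
Histograms give the number of gated EdCs (y axes) by the fold of their gate UMI share over the pooled share (x axes, bins of 1), with the 489 mutant cells left and the 246 wild-type cells right and the median dashed. Mutant cells lie closer to the threshold of 3 (median 5.99) than wild-type cells (median 8.92).

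As a share of kept barcodes, gated EdCs made up 6.82% of the mutant library (interval 6.24 to 7.42) and 6.85% of the wild-type library (6.05 to 7.73). The ratio of the shares was 0.994 (0.851 to 1.16), with an interval over the cells of single libraries that includes 1. The ratio depended on the gate: requiring a fold of at least 6 left 243 mutant and 192 wild-type cells and a ratio of 0.633. Leaving spock3 out of the gate gave 1.18, and leaving aqp8a.1 out gave 0.704. Without cells that held 3 or more markers of another cell type, 66 mutant and 69 wild-type cells were left and the ratio was 0.479. The related gates took 171 mutant and 117 wild-type cells for the vwf set (ratio 0.731, 0.575 to 0.933) and 261 and 47 cells for the coronary set (ratio 2.78, 2.03 to 3.88).

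Beyond the gate genes, endothelial genes were higher in the gated EdCs than in other kept barcodes. Of 1285 genes with at least 50 UMIs in gated EdCs and no role in the gate or the drop sets, 109 (8.48%) were at least 2-fold higher than in other kept barcodes in both libraries and 70 (5.45%) at least 2-fold lower. Of the 20 genes of the pan-endothelial list, 15 had at least 20 UMIs, and 14 of these 15 were at least 2-fold higher than in other kept barcodes in both libraries, against 7.95% of 2730 genes with at least 20 UMIs. The list summed to 1857 CPM in mutant EdCs, against 600 CPM in other kept mutant barcodes, and 2945 CPM in wild-type EdCs, against 638 CPM in other kept wild-type barcodes. This level was not particular to the gated EdCs. The sum was 1961 CPM in mutant and 4364 CPM in wild-type cells of the coronary set, and 948 and 2659 CPM in the vwf set. egfl7, a secreted endothelial matrix factor, was 6.28-fold higher than in other kept barcodes of the mutant library (202 and 32.2 CPM) and 7.13-fold higher than in those of the wild-type library (234 and 32.8 CPM). ecscr, an endothelial surface protein gene, was 4.35-fold and 10.7-fold higher, and epas1b, the gene of a hypoxia-inducible factor, was 4.36-fold and 10.4-fold higher. kdrl, a VEGF receptor gene, was 2.70-fold higher in the mutant library and 5.79-fold higher in the wild-type library. The defining markers were nevertheless sparse per cell: when each cell was thinned to 500 non-mitochondrial UMIs, 274 of 489 mutant EdCs (56.0%) and 190 of 244 wild-type EdCs (77.9%) held at least 1 pan-endothelial gene, against 25.5% and 21.8% of other kept barcodes.

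An abundant gene with a large ratio was mb, which encodes myoglobin, an oxygen-binding protein best known from muscle. mb reached 11689 CPM in mutant EdCs and 1834 CPM in other kept mutant barcodes, a 6.37-fold difference, and 17323 CPM in wild-type EdCs and 1694 CPM in other kept wild-type barcodes, a 10.2-fold difference. After thinning, mb was detected in 93.9% of mutant and 98.4% of wild-type EdCs, against 53.3% and 39.1% of other kept barcodes. It was also far below the gated EdCs in both endothelial relatives, at 1442 and 2173 CPM in the mutant and wild-type vwf sets and 2149.7 and 1882 CPM in the mutant and wild-type coronary sets. The cardiomyocyte gene myl7, a cardiac myosin light chain gene, was at 0.735 times the level of other kept barcodes in the mutant library and 0.730 times in the wild-type library. The cardiomyocyte list as a whole did not follow myl7 in wild type. Its 12 genes summed to 4966 CPM in mutant EdCs against 6237 CPM in other kept barcodes, but to 7077 against 6182 CPM in wild type.

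The remaining genes highest over other kept barcodes were vascular, metabolic or unnamed. Endothelial signalling was represented by dll4 (a Notch ligand, 5.47-fold in the mutant and 6.97-fold in the wild-type library), flt1 (a VEGF receptor, 5.47-fold and 8.54-fold) and the flow-responsive factor klf2b (4.62-fold and 11.3-fold). Among secreted products were f8 (coagulation factor VIII, 5.31-fold and 6.10-fold) and epoa (erythropoietin, 6.31-fold and 9.51-fold). Enzymes and adaptors included gpd1b (glycerol-3-phosphate dehydrogenase, 6.26-fold and 15.5-fold), sult2st3 (a sulfotransferase, 5.69-fold and 7.34-fold) and grb10a (a receptor tyrosine kinase adaptor, 4.72-fold and 10.4-fold). Small GTPase and membrane protein genes were arl4aa (5.75-fold and 8.84-fold), arl4ab (4.66-fold and 6.42-fold), tmem88a (5.78-fold and 9.16-fold), myct1b (7.18-fold and 8.14-fold) and fam174b (7.54-fold and 21.3-fold). Genes without a descriptive name took several of the top places, led by zgc:193505 (11.8-fold and 21.6-fold) and si:ch73-86n18.1, which had 587 CPM in mutant EdCs (10.8-fold) and 845 CPM in wild-type EdCs (11.8-fold). The others were si:dkeyp-97a10.2 (6.91-fold and 16.1-fold), zgc:64106 (6.20-fold and 12.5-fold) and si:ch211-145b13.6 (5.02-fold and 9.99-fold).

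**Figure D3:**
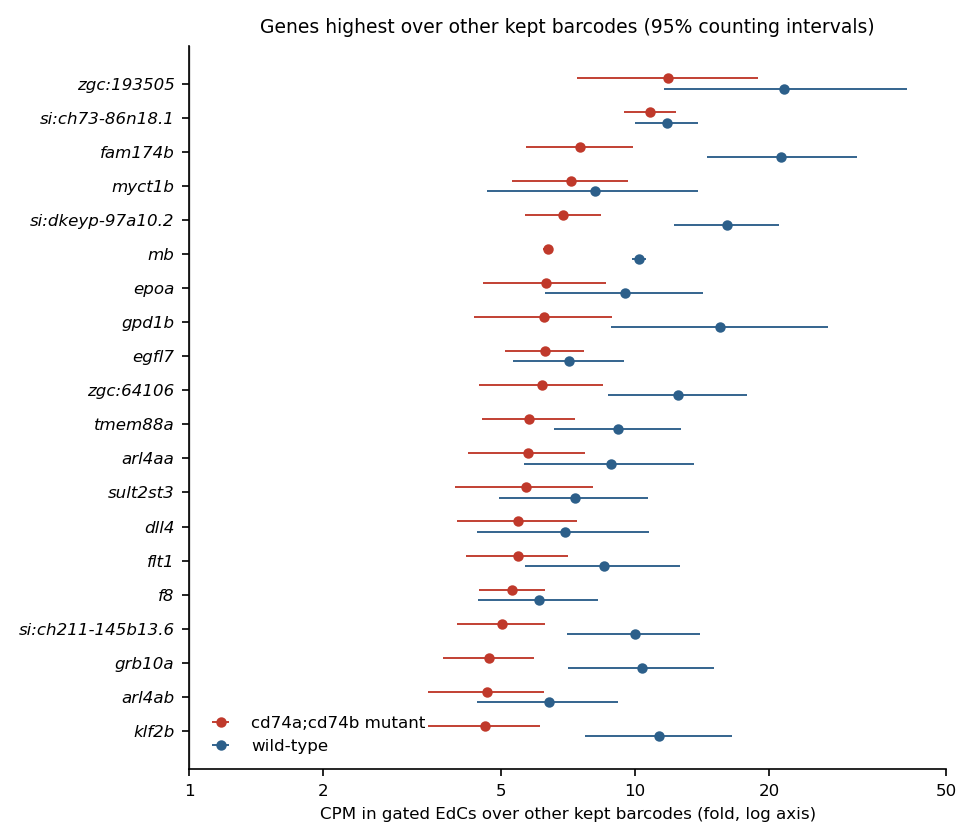
Points give the ratio of CPM in gated EdCs to CPM in other kept barcodes (x axis, fold, log axis) for the 20 genes highest in both libraries after the gate and drop-set genes were left out, with exact 95% counting intervals, mutant library above wild-type library in each row. The wild-type point lies to the right of the mutant point for each gene, for example 10.2-fold and 6.37-fold for mb.

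Of endocardial genes outside the gate, fabp11a (a fatty acid binding protein gene) had 14588 CPM in mutant and 12525 CPM in wild-type EdCs, 2.90-fold and 4.72-fold above other kept barcodes, but it was higher still in the coronary set (29889.7 CPM in mutant and 26537 CPM in wild-type coronary cells). id2b, which encodes an inhibitor of helix-loop-helix factors, separated the gated EdCs from the coronary set: it had 560 CPM in mutant and 789.9 CPM in wild-type EdCs, which was 14.5-fold above mutant coronary cells and 17.6-fold above wild-type ones. The cardiac transcription factor gene gata5 was 2.77-fold and 3.89-fold above other kept barcodes. aldh1a2, the retinaldehyde dehydrogenase gene, was not particular to these cells, at 1.51 and 1.23 times the level of other kept barcodes. Some textbook markers were near or at 0: nfatc1, the transcription factor of valve endocardium, had 4 and 2 UMIs, and wif1 and sox18 had 0 in both libraries. Of the 9 genes of this endocardial list with at least 20 UMIs, 6 were at least 2-fold above other kept barcodes in both libraries (background 7.95%). At least 2-fold below was 1 of the 9 (background 4.84%). The cells are therefore described by their gate. Outside it the endothelial list and most of these 9 genes were above other kept barcodes, while nfatc1, wif1 and sox18 were near or at 0.

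Compared with the vwf set over 1872 genes outside the gates, 107 genes (5.72%) were at least 2-fold higher in gated EdCs in both libraries and 41 (2.19%) at least 2-fold lower. Among those higher were mb, the repressor gene hic1 (132 CPM in mutant EdCs against 13.9 CPM from 6 UMIs in the mutant vwf set, and 94.3 CPM in wild-type EdCs against 9.92 CPM from 2 UMIs in the wild-type vwf set) and mgst1.2, a glutathione transferase gene. Among those lower were il34 (a ligand of the Csf1 receptor), ccn2a (connective tissue growth factor) and ptgs2a (cyclooxygenase 2). Compared with the coronary set over 1805 genes, 100 (5.54%) were at least 2-fold higher in both libraries and 75 (4.16%) at least 2-fold lower. rgs5b, a regulator of G protein signalling, had 45.9 CPM in mutant EdCs against 1136 CPM in mutant coronary cells, and 26.0 CPM in wild-type EdCs against 2312 CPM in wild-type coronary cells.

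Markers of other cell types were present in the gated EdCs. Before thinning, at least 3 cardiomyocyte markers were detected in 386 mutant EdCs (78.9%) and 153 wild-type EdCs (62.2%), at least 3 fibroblast markers in 208 (42.5%) and 72 (29.3%), and at least 3 macrophage markers in 56 (11.5%) and 20 (8.13%). Thinned to 500 UMIs, at least 3 cardiomyocyte markers were left in 40.9% of mutant and 31.1% of wild-type EdCs, against 47.7% and 24.2% of other kept barcodes. All 12 cardiomyocyte genes had at least 20 UMIs and summed to 4966 CPM in mutant and 7077 CPM in wild-type EdCs, against 6237 and 6182 CPM in other kept barcodes and 16371 and 14034 CPM in the removed barcodes. All 9 fibroblast genes with at least 20 UMIs and 9 of 11 such macrophage genes were at least 2-fold below other kept barcodes in both libraries, against 4.84% of all such genes. The macrophage list summed to 1198 CPM in mutant and 1651 CPM in wild-type EdCs, against 3601 and 6194 CPM in other kept barcodes. No UMI of the 5 B cell markers or of the 4 Schwann cell markers was found in gated EdCs, which allows a share of cells with a UMI of up to 0.613% in mutants and 1.22% in wild type (3 counts of the cells).

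Cells with more gate genes had lower cardiomyocyte sums. Gate genes were used to select the cells, and cells with more of them were also deeper. Median depth was 1104, 1241 and 1798 non-mitochondrial UMIs in mutant EdCs with 2, 3 and at least 4 gate genes. In wild-type EdCs it was 948, 1058 and 1279.5 UMIs, and the part of depth in the sums below was not tested. The cardiomyocyte sum was 5980, 4321 and 2626 CPM in mutant EdCs with 2, 3 and at least 4 gate genes, and 9757, 5262 and 1847 CPM in wild-type EdCs. The pan-endothelial sum ran the other way, at 1698, 1981 and 2184 CPM in mutant and 2755, 3047 and 3394 CPM in wild-type EdCs. In wild type its intervals overlapped (2499 to 3029, 2734 to 3387 and 2847 to 4014). In mutants those for 2 and at least 4 gate genes did not (1571 to 1833 and 1920 to 2474). mb followed the endothelial genes, with 10481, 12568 and 14281 CPM in mutant and 16709, 17663 and 18740 CPM in wild-type EdCs. The endocardial list outside the gate rose in mutants (25568, 29219 and 32125 CPM) but not steadily in wild type (31206, 32730 and 32041 CPM). The macrophage sum fell in mutants (1558, 836 and 601 CPM) but not steadily in wild type (1532, 2330 and 200 CPM).

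Between genotypes, the ratio of mutant to wild type was skewed downwards for most genes of the gated EdCs. Among 1294 genes with at least 50 UMIs, 42 (3.25%) were at least 2-fold higher in mutant EdCs and 171 (13.2%) at least 2-fold lower on the CPM scale. The median log2 ratio was −0.36 for these genes and −0.41 for the 2742 genes with at least 20 UMIs, and a like shift was present in other kept barcodes (median −0.45). Relative to the median of the 1294 genes the split turned round, with 96 genes (7.42%) at least 2-fold higher and 61 (4.71%) at least 2-fold lower. Ratios are therefore given on the CPM scale beside this shift: a log2 ratio between −0.41 and 0 is lower in mutants in CPM but above the median gene.

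**Figure D4:**
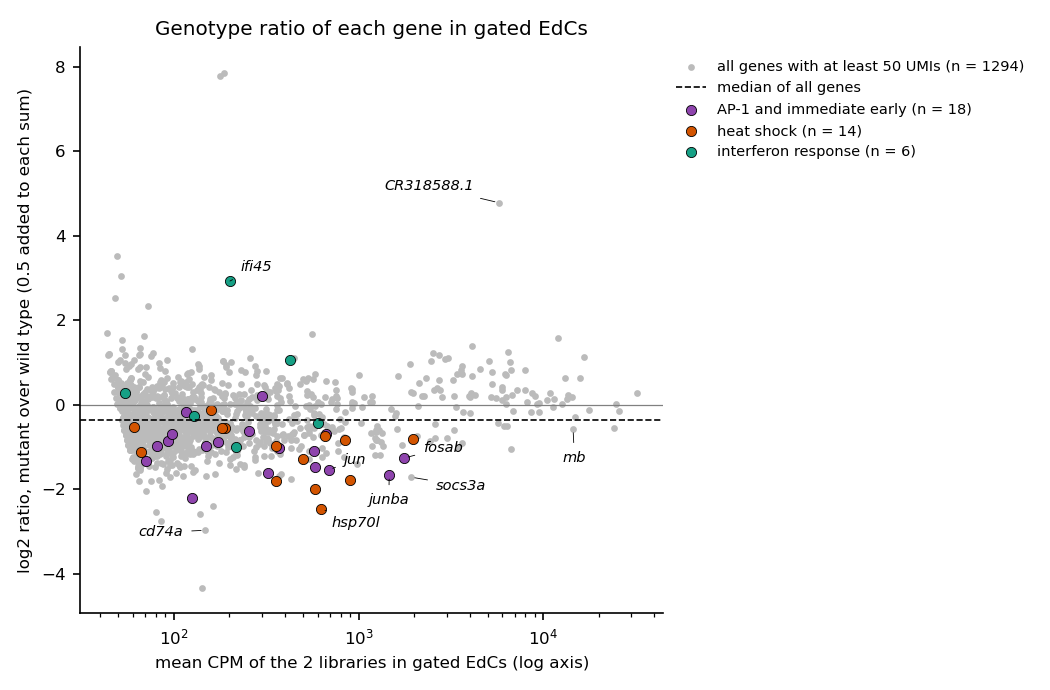
Each point is a gene with at least 50 UMIs in gated EdCs, placed by its mean CPM in the 2 libraries (x axis, log axis) and its log2 ratio of mutant over wild type (y axis), with AP-1 and immediate early, heat shock and interferon genes coloured and the median of all 1294 genes (−0.36) dashed. AP-1 and heat shock genes lie mostly below the dashed line, while ifi45 and CR318588.1 lie far above it.

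The AP-1 and immediate early genes, which encode the Fos and Jun transcription factors and other rapid responses to stress and growth signals, were lower in mutant EdCs. Of 25 such genes in the files 18 had at least 20 UMIs. A lower CPM in mutants was found for 17 of the 18, and for 73% of all genes with at least 20 UMIs. The median log2 ratio of the 18 was −1.01, or −0.60 relative to all genes. Of the 18, 9 were at least 2-fold lower, against 18.2% of the 2742 genes with at least 20 UMIs, and 16 lay below the median gene, as did 49.9% of all such genes. The study named fosab, jun, junba and junbb from these libraries, so they are no independent evidence of a direction. Without those 4, the other 14 genes had a median of −0.93, or −0.52 relative to all genes, with 5 at least 2-fold lower.

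fosab, a Fos family gene, had 1039 CPM in mutant EdCs (965 to 1118) and 2497 CPM in wild-type EdCs (2323 to 2680), a log2 ratio of −1.26 (−1.41 to −1.12). After thinning it was detected in 38.2% of mutant and 56.1% of wild-type EdCs. Among the Jun genes, junba had 703 CPM in mutant and 2230 CPM in wild-type EdCs (log2 ratio −1.67), jun had 353 and 1030 CPM (−1.55) and junbb had 304 and 852 CPM (−1.49). The zinc finger gene egr1 had 159 CPM in mutant and 491 CPM in wild-type EdCs (−1.62), and the nuclear receptor gene nr4a1 had 44.5 and 208 CPM (−2.23). Of these 6 genes the study had named 4, and nr4a1 was among the 10 lowest ratios. gadd45ba, a growth arrest and DNA damage gene, had a log2 ratio of −1.09, and the antiproliferative gene btg2 had −0.69. Members that did not follow were klf6a, with 324 CPM in mutant and 280 CPM in wild-type EdCs (0.21, −0.15 to 0.59), and the phosphatase gene dusp1 (−0.16, −0.74 to 0.44), whose intervals include 0.

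Lower AP-1 levels were not confined to the gated EdCs. fosab had 561 CPM in the mutant and 1000 CPM in the wild-type library over other kept barcodes (log2 ratio −0.83), and jun had 265 and 395 CPM (−0.57). The median of the list relative to all genes was −0.60 in gated EdCs, −0.87 in the vwf set, −0.64 in the coronary set, −0.30 in other kept barcodes and −0.44 in the removed barcodes. All 5 values lay below 0, and whether they differ from each other was not tested. In gated EdCs the list summed to 4970, 4559 and 4916 CPM in mutant cells with 2, 3 and at least 4 gate genes. It summed to 9990, 12197.5 and 11778 CPM in the matching wild-type cells. junba, 1 of the genes the study had named, had 714, 618 and 814 CPM in these mutant EdCs and 1992, 2436 and 2570 CPM in the wild-type ones. Gate genes were used to select the cells and depth differed between these groups, so the split is a description only.

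Heat shock genes, which encode protein chaperones induced by stress, were also lower in mutant EdCs. All 17 of the 21 genes with at least 20 UMIs had a lower CPM in mutants, as did 73% of all such genes, and 7 of the 17 were at least 2-fold lower (background 18.2%). The median log2 ratio was −0.83, or −0.42 relative to all genes. The inducible Hsp70 genes led the list, though reads of these near-identical copies may be split among them by the counting. hsp70l had 192 CPM in mutant EdCs (161 to 228) and 1063 CPM in wild-type EdCs (951 to 1185), a log2 ratio of −2.47, and was detected after thinning in 8.79% and 30.3% of cells. hsp70.2 had 232 CPM in mutant and 933 CPM in wild-type EdCs (−2.00), hsp70.3 had 405 and 1398 CPM (−1.79) and hsp70.1 had 159 and 556 CPM (−1.80). The constitutive chaperone genes hspa8 (−0.83) and hsp90ab1 (1431 CPM in mutant and 2532 CPM in wild-type EdCs, −0.82) and the small heat shock gene hspb1 (−0.74) had smaller ratios, and the chaperonin gene hspe1 lay at −0.12 (−0.62 to 0.39). In other kept barcodes the Hsp70 genes were lower in the mutant library too, for example hsp70l at 214 CPM in the mutant and 633 CPM in the wild-type library, and the relative median of the list was −0.39 there.

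socs3a, which encodes a feedback inhibitor of cytokine and Stat3 signalling, was among the most abundant of the genes that differed. It had 896 CPM in mutant EdCs (827 to 969) and 2942 CPM in wild-type EdCs (2753 to 3140), a log2 ratio of −1.72 (−1.87 to −1.57), and was detected after thinning in 37.0% of mutant and 72.5% of wild-type EdCs. Over other kept barcodes it had 504 CPM in the mutant and 905 CPM in the wild-type library (−0.84). All 7 genes of the Socs3 and Stat3 list with at least 20 UMIs had a lower CPM in mutant EdCs, as did 73% of all such genes, with a median relative to all genes of −0.30. At least 2-fold lower were 3 of the 7 (background 18.2%): socs3a, its paralogue socs3b (−1.10) and the transcription factor gene cebpd (−1.07). With more than 500 genes per barcode the relative median turned to 0.05 and socs3b stood at −0.38. cebpb had a log2 ratio of −0.70, the gp130 receptor gene il6st −0.49 and the kinase gene jak1 −0.56, the last 2 with intervals that include 0. stat3 itself had only 9 UMIs in mutant and 1 UMI in wild-type EdCs.

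**Figure D5:**
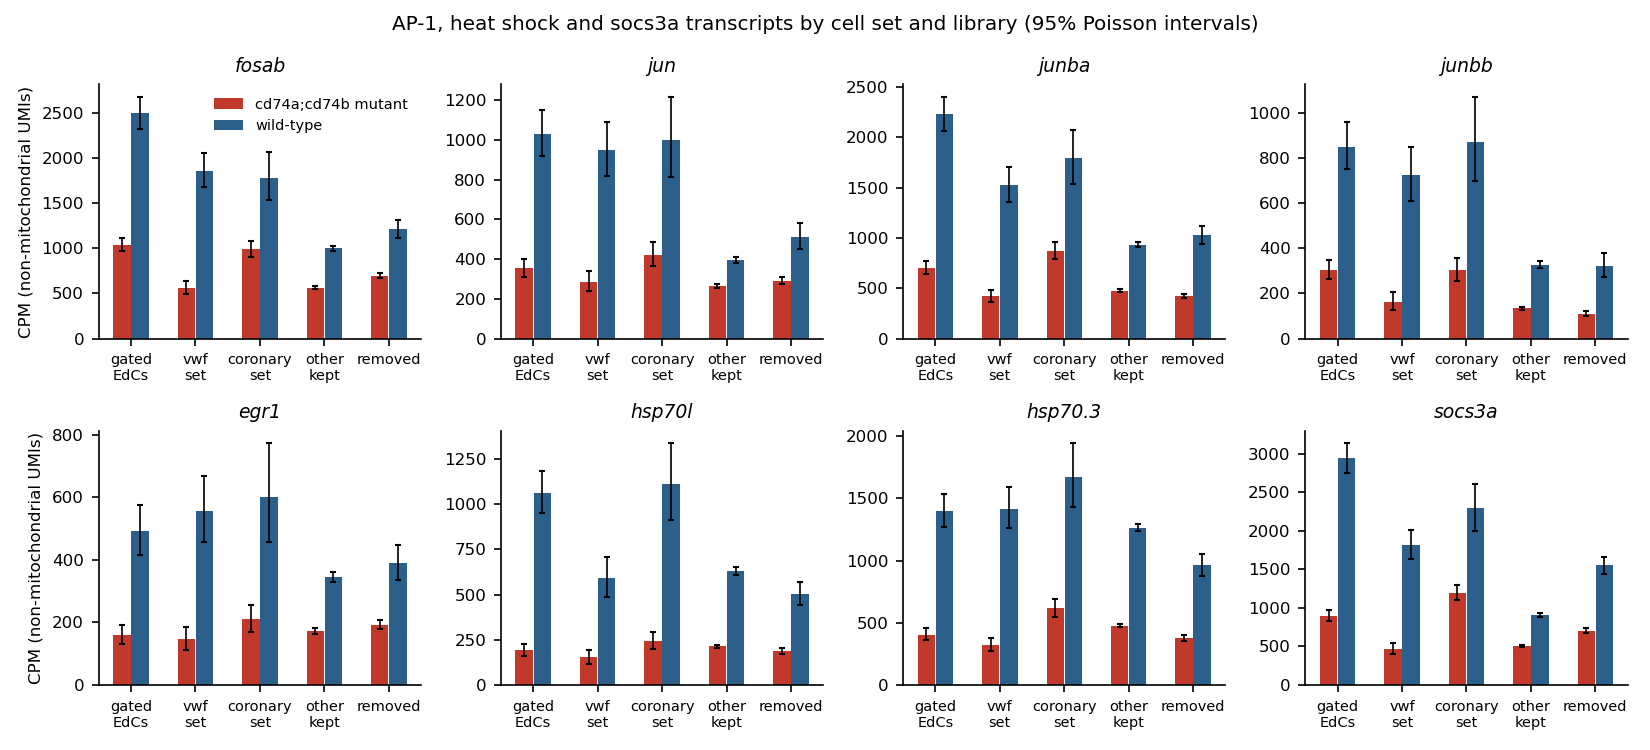
Bars give CPM (y axes, CPM of non-mitochondrial UMIs) of 5 AP-1 and immediate early genes, 2 Hsp70 genes and socs3a in gated EdCs, the vwf set, the coronary set, other kept barcodes and removed barcodes, mutant library left and wild-type library right, with exact 95% Poisson intervals. The mutant bar is below the wild-type bar in each of the 5 sets for each gene, and for socs3a the gated EdCs hold 896 CPM in mutants and 2942 CPM in wild type.

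Antigen presentation genes of MHC class II were scarce in gated EdCs. Apart from the mutated genes, mhc2a, an MHC class II alpha chain gene, had 78.9 CPM in mutant EdCs (55 UMIs) and 26.0 CPM in wild-type EdCs (8 UMIs), a log2 ratio of 1.60 (0.52 to 2.88). Both levels were below those of other kept barcodes (214 CPM in the mutant and 145 CPM in the wild-type library). mhc2dab, a beta chain gene, had 49 UMIs in mutant and 29 UMIs in wild-type EdCs (−0.42, −1.11 to 0.29). The lysosomal protease gene ctsla had 327 CPM in mutant and 585 CPM in wild-type EdCs (−0.84), ctss2.1, a cathepsin S gene, had 159 and 244 CPM (−0.61), and the legumain gene lgmn had 111 and 97.5 CPM (0.18, −0.45 to 0.84). Of the 9 class II genes with at least 20 UMIs, cd74a and cd74b included, 7 were at least 2-fold below other kept barcodes in both libraries (background 4.84%). The genotype median of the 9 relative to all genes was −0.36. This median includes the mutated genes cd74a (−2.97) and cd74b (−2.76), and it was not computed without them.

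UMIs of cd74a, cd74b or mhc2a went with macrophage markers. In cells without any macrophage marker, 8 of 233 mutant EdCs (3.43%, 1.49 to 6.65) and 22 of 144 wild-type EdCs (15.3%, 9.83 to 22.2) held at least 1 such UMI. With 1 or 2 markers it was 29 of 200 (14.5%) and 21 of 82 (25.6%), and with at least 3 markers 28 of 56 (50%) and 18 of 20 (90%). The median depth of these groups lay between 961 and 1373.5 non-mitochondrial UMIs. In wild-type EdCs without a macrophage marker, 17 UMIs were of cd74a, 8 of cd74b and 2 of mhc2a. Shares of other kept barcodes with a cd74a UMI were 4.62% in the mutant and 29.0% in the wild-type library after thinning, against 0.818% and 10.2% of gated EdCs, and the part of free RNA in these UMIs was not tested.

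Interferon-responsive genes ran against the general shift in gated EdCs. Of 8 such genes with at least 20 UMIs, 5 were higher in mutant EdCs and 4 of them at least 2-fold, against 3.57% of all such genes, with a median log2 ratio of 0.67, or 1.08 relative to all genes. ifi45, an interferon-inducible gene, had 357 CPM in mutant EdCs (314 to 405) and 45.5 CPM in wild-type EdCs (24.9 to 76.4), a log2 ratio of 2.97. ifi46 had 580 CPM in mutant and 276 CPM in wild-type EdCs (1.07), and the ubiquitin-like modifier gene isg15 had 44 UMIs in mutant and 1 UMI in wild-type EdCs (4.28, 1.73 to 9.62). By contrast the class I gene mhc1zba was lower in mutants (−1.01). The class I light chain gene b2m (−0.43) lay near the median gene (−0.41), and stat1a lay at −0.27 (−0.82 to 0.30). The mutant library was also higher for ifi45 over other kept barcodes, at 546 CPM in the mutant and 126 CPM in the wild-type library, and the relative median of the list was 1.01 there. It was 1.22 in the coronary set and 0.79 in the removed barcodes. In the vwf set it was only 0.21, and 4 of 6 genes were lower in mutants there. With only the 5 genes that had at least 100 UMIs the median in gated EdCs was 0.01 relative to all genes.

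Endothelial genes lay somewhat below the median gene. Of 15 pan-endothelial genes with at least 20 UMIs, 13 had a lower CPM in mutant EdCs (background 73%) and 3 were at least 2-fold lower (background 18.2%), with a median of −0.67, or −0.26 relative to all genes. The relative median of this list was −1.01 in the vwf set, −0.65 in the coronary set and 0.37 over other kept barcodes. kdrl had 103 CPM in mutant EdCs (80.8 to 130) and 231 CPM in wild-type EdCs (180 to 291), a log2 ratio of −1.16 (−1.65 to −0.67). It was also lower in the mutant vwf set (50.8 CPM, against 193 CPM in wild type) and the mutant coronary set (155 against 450 CPM). Over other kept barcodes kdrl had 38.2 CPM in the mutant and 39.8 CPM in the wild-type library. Without cells that held 3 or more markers of another cell type, the log2 ratio of kdrl was −0.19. The angiopoietin receptor gene tek (−1.44) and epas1b (198 CPM in mutant and 380 CPM in wild-type EdCs, −0.94) were also among the lowest. The VE-cadherin gene cdh5 had 257 CPM in mutant and 400 CPM in wild-type EdCs (−0.64), the sialomucin gene podxl had −0.67, the adrenomedullin co-receptor gene ramp2 had −0.63 and ecscr had −0.58. The ETS factor gene fli1a (−0.54, −1.07 to 0.00) and egfl7 (−0.21, −0.63 to 0.22) had intervals that reach 0. The summed endothelial CPM was lower in mutant EdCs, and fewer endothelial transcripts per cell and a larger part of other RNA in the barcodes cannot be told apart.

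The endocardial genes outside the gate with at least 20 UMIs differed by less than 2-fold between genotypes. aldh1a2 had 254 CPM in mutant EdCs (218 to 294) and 458 CPM in wild-type EdCs (386 to 541), a log2 ratio of −0.85, and over other kept barcodes it had 168 CPM in the mutant and 373 CPM in the wild-type library (−1.15). mb had a log2 ratio of −0.57 (−0.62 to −0.52), gata5 of −0.82, klf2b of −0.75 and id2b of −0.50, while fabp11a was higher in mutants (0.22, 0.17 to 0.27). fabp11a was also higher in the mutant library in the coronary set and over other kept barcodes. Of 9 endocardial genes outside the gate with at least 20 UMIs, 7 had a lower CPM in mutants (background 73%) and none reached 2-fold, with a median of −0.16 relative to all genes.

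Natriuretic peptides are hormones that act on vessels and cardiac growth. Of the 7 genes of these peptides and their receptors 3 had at least 20 UMIs, 1 of them the gate gene nppc, and 1 was at least 2-fold lower in mutant EdCs (background 18.2%), with a median of −0.23 relative to all genes. nppa, which is also on the cardiomyocyte marker list, had 379 CPM in mutant and 894 CPM in wild-type EdCs (log2 ratio −1.24, −1.49 to −0.99). Over other kept barcodes nppa had 455 CPM in the mutant and 465 CPM in the wild-type library. The part of cardiomyocyte RNA in its ratio was not tested. nppb had 576 CPM in mutant and 894 CPM in wild-type EdCs (−0.64), which was 2.56-fold and 2.86-fold above other kept barcodes, and its log2 ratio was −0.037 without cells that held 3 or more markers of another cell type. The receptor genes npr1a and npr1b had 0 UMIs, and npr2 and npr3 had 1 UMI each over both libraries.

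In the Klf and Notch pathway, 10 genes had at least 20 UMIs and 3 of them were at least 2-fold lower in mutant EdCs (background 18.2%), with a median of −0.36 relative to all genes. This median turned to 0.05 with more than 500 genes per barcode and to 0.08 without cells that held 3 or more markers of another cell type, where her6 stood at −0.45. The Notch target her6 had 136 CPM in mutant and 296 CPM in wild-type EdCs (−1.12, −1.55 to −0.69) and the Notch feedback gene nrarpa had 51.7 and 140 CPM (−1.44, −2.12 to −0.76). The ligand gene dll4 lay at −0.20 (−0.85 to 0.47) and klf2a at 0.43 (−0.38 to 1.32), both with intervals that include 0. The receptor genes notch1a and notch1b had 36 and 28 UMIs over both libraries, too few to show a difference.

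Secreted ligands were sparse. Only 9 of the 34 growth factor genes had at least 20 UMIs, with a median of −0.06 relative to all genes. Among the 9 were bmp6 and cxcl12b of the drop sets, which were used to select the cells. igf2b, an insulin-like growth factor gene, had 76.1 CPM in mutant and 150 CPM in wild-type EdCs (−0.98), and hbegfa, an EGF receptor ligand gene, had 109 and 133 CPM (−0.29, −0.86 to 0.30). nrg1, the neuregulin gene, had 0 UMIs in both. Of axon guidance genes 4 passed, among them the gate gene ntn1b and the Slit ligand gene slit2 of the vwf drop set, both used to select the cells, and their relative median was 0.10. Of retinoid genes 4 passed with a relative median of −0.49, including the retinol carrier gene rbp4 at 155 CPM in mutant and 299 CPM in wild-type EdCs (−0.95), which was also lower in the mutant library over other kept barcodes (−1.08).

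Matrix genes were low in these cells, with 8 of 15 at least 2-fold below other kept barcodes in both libraries (background 4.84%), and had a genotype median of −0.03 relative to all genes. The 15 included the gate gene spock3, which was used to select the cells. The collagen-binding glycoprotein gene sparc had 522 CPM in mutant and 683 CPM in wild-type EdCs (−0.39), and the fibronectin gene fn1b had 438 and 413 CPM (0.08, −0.22 to 0.39), but its log2 ratio was −2.49 without cells that held 3 or more markers of another cell type. hapln1b, a link protein gene of hyaluronan matrix, had 41.6 and 117 CPM (−1.49, −2.25 to −0.75). Coagulation genes had a relative median of 0.13 over 7 genes, among them vwf, a drop-set gene used to select the cells. This median turned to −0.31 with a gate fold of at least 6. f8 was higher in mutant EdCs, at 273 CPM in mutants and 192 CPM in wild type (0.51, 0.08 to 0.95), the tissue factor pathway inhibitor gene tfpia was at 317 and 377 CPM (−0.25, −0.58 to 0.09), and anxa2a, an annexin gene, was at 1550 and 2601 CPM (−0.75).

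Of 17 glycolysis genes 14 lay below the median gene (background 49.9%), with a relative median of −0.18 that turned to 0.09 with at least 3 gate genes per cell. The abundant gapdhs had 966 CPM in mutant and 1515 CPM in wild-type EdCs (−0.65), and aldocb, an aldolase gene, was the lowest at −1.47. Of 32 nuclear genes of the respiratory chain and ATP synthase 6 lay below the median gene (background 49.9%), with a median log2 ratio of 0.10, or 0.51 relative to all genes, and the relative median over other kept barcodes was 0.45. uqcrq of complex III had 613 CPM in mutant and 283 CPM in wild-type EdCs (1.12), while atp5f1b, the ATP synthase beta subunit gene, had 383 and 631 CPM (−0.72). Cell cycle transcripts were rare: mki67 had 5 UMIs in mutant and 3 in wild-type EdCs, pcna had 53 and 24 UMIs (−0.04, −0.76 to 0.72), and 5 genes passed with a relative median of 0.29. Haemoglobin hbba1 was lower in mutant EdCs, at 1029 CPM in mutants and 2103 CPM in wild type (−1.03), and myl7 had 1046 and 1486 CPM (−0.51). Both genes are on marker lists of other cell types, and the ratio of myl7 lay near that of the median gene (−0.41). The source of their UMIs in gated EdCs, and their part in the other ratios, was not tested.

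Several of the highest ratios belonged to genes whose summed level also differed between the libraries over other kept barcodes. BX322787.1 had 262 UMIs in 36 mutant EdCs and 0 in wild-type EdCs, at least 38.6-fold higher with a floor of 3 counts in the wild-type sum, and si:dkey-203a12.9 had 247 UMIs in 27 mutant EdCs and 0 in wild-type EdCs, at least 36.3-fold higher. Over other kept barcodes they had 496 and 544 CPM in the mutant library and under 1 CPM in the wild-type library. CR318588.1 had 11115 CPM in mutant and 403 CPM in wild-type EdCs (4.79, 4.53 to 5.05), against 19062 and 1269 CPM over other kept barcodes. zgc:152791 had 857 CPM in mutant and 267 CPM in wild-type EdCs (1.68) and 292 and 58.0 CPM over other kept barcodes. si:dkey-188i13.6 (3.82), zgc:153409 (2.68), the actin-remodelling gene flii (2.42) and the galectin gene lgals17 (1.79) completed this end, together with rbp2a of the coronary drop set (65 UMIs in mutant and 3 UMIs in wild-type EdCs).

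At the low end, beside cd74a, cd74b, hsp70l, hsp70.2 and nr4a1, stood s100v2, an S100 calcium-binding protein gene. s100v2 had 12.9 CPM in mutant EdCs (5.91 to 24.5) and 273 CPM in wild-type EdCs (218 to 338), a log2 ratio of −4.40 (−5.58 to −3.41), and was detected after thinning in 0.409% and 13.1% of cells. Over other kept barcodes it had 40.7 CPM in the mutant and 141 CPM in the wild-type library (−1.80). slc22a31, a solute carrier gene, had 38.7 CPM in mutant and 237 CPM in wild-type EdCs (−2.61, −3.31 to −1.96), with −0.77 over other kept barcodes, and si:ch211-214p16.1 had 51.7 and 273 CPM (−2.40), with −0.29 there. The chromobox gene cbx7a (−2.06) and BX571880.1 (−2.57) were the other low genes. Whether the ratio in gated EdCs differs from that in other kept barcodes was not tested for any gene.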

How the data were processed

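Single-cell RNA-seq counts of 2 libraries, 1 per genotype, were analysed. The deposited UMI counts were made by the authors with STARsolo on danRer11 and handled with Scanpy, per the submitters' processing notes; versions are not given in the sources used here. The deposited barcodes (15142 mutant and 4607 wild-type) were filtered at more than 300 genes and at most 70% mt- UMIs, which left 7174 and 3589. No doublet caller was run. UMIs were summed over gated cells and scaled to non-mitochondrial UMIs, leaving out 37 mitochondrial genes. A gene was called at a CPM ratio of at least 2-fold with at least 50 UMIs over both libraries. List medians used genes with at least 20 UMIs, with 0.5 added to each sum. For detection, cells were thinned to 500 UMIs (seed 1), leaving out 2 wild-type EdCs. Named genes were the 6 gate genes, cd74a and cd74b, genes the study names for EdCs, the 20 highest over other barcodes, the 10 highest and 10 lowest genotype ratios, and up to 6 genes of each list with the most UMIs. Other genes in the text were chosen after their values were seen. A gene that this rule names is not reported here. The members and gene lists were chosen with earlier results of these data known. Calls were tested on simulated Poisson counts without other variation between libraries, so the rates cover counting error only. Over 1188 genes, 4-fold changes were called in 100% and 2-fold changes in 31.3%, and 0.974% of unchanged genes passed 2-fold. The gate recovered 96.7% of 300 planted cells. Planted cells held more gate UMIs than the median gated EdC (6 in mutants, 7 in wild type), so this share does not apply to cells near the threshold. Python 3.11.15, NumPy 2.4.6, SciPy 1.17.1 and matplotlib 3.10.9 were used.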

Additional observations from a re-analysis of the deposited data

Results flagged for a closer look

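Barcodes that the filters removed also carried the gate genes. Of the removed barcodes, 259 of 7968 in the mutant library (3.25%, 2.87 to 3.66) and 81 of 1018 in the wild-type library (7.96%, 6.37 to 9.79) passed the same gate, although no comparison above uses them. All had 300 genes or fewer, with medians of 263 genes in mutant and 268 genes in wild-type barcodes and median mitochondrial shares of 30.1% and 25.9%. They held mb at 12813 CPM in the mutant and 18856 CPM in the wild-type library, and pan-endothelial genes at 1875 and 2928 CPM.

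BX908782.2, a gene without a descriptive name, pointed in opposite directions in different cells. Relative to the median gene the log2 value for mutants against wild type was −1.13 in gated EdCs (24 mutant and 30 wild-type UMIs), 1.45 in the coronary set (113 and 10 UMIs) and 2.02 over other kept barcodes (363 and 67 UMIs). The difference was not tested, and it was 1 gene of 1294 compared with other kept barcodes, 1 of 695 compared with the coronary set and 0 of 794 compared with the vwf set.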

How the results depend on the processing

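Relative list medians took the other sign in 14 of 115 values, over 8 lists, including growth factors (0.47) and matrix genes (0.32) with more than 500 genes per barcode. Values of named genes did so in 64 of 996, over 29 genes, and 4 of these values were of genes whose counting interval left out 0. Without cells that held 3 or more markers of another cell type, 66 mutant and 69 wild-type EdCs were left, the ratio of shares was 0.479, the genes higher and lower in mutants numbered 12 and 45, those higher and lower than other barcodes 25 and 9, 3 of 7 other lists lay below the median gene, and hspb1 (0.072) and id2b (0.19) changed sign. With more than 500 genes per barcode the ratio of shares was 1.48, 60 and 33 genes were higher and lower than other barcodes, 4 of 11 lists lay below the median gene, and rbp2a (−0.0099) and rbp4 (0.067) changed sign. With a gate fold of at least 6 the ratio was 0.633, 27 genes were higher in mutants and 36 lower than other barcodes. Without aqp8a.1 or spock3 in the gate the ratio was 0.704 or 1.18. With at least 3 gate genes, 93 genes were lower in mutants, and 68 and 26 were higher and lower than other barcodes. Median-of-ratios scaling gave 96 genes higher and 61 lower in mutants and a heat shock median of −0.47, and scaling without ribosomal protein genes gave 81 lower. A minimum of 20 UMIs gave 98 and 498 genes between genotypes and 217 and 132 against other barcodes, and a minimum of 200 gave 21 and 39, and 28 and 20. With a minimum of 100 UMIs, 5 of 9 lists lay below the median gene. Smaller sets of cells and higher minimums test fewer genes by construction. Median-of-ratios scaling subtracts the median of the 1294 genes. Its counts are therefore those given above relative to that median, and its heat shock median is shifted by the same value. The cause of the other shifts was not tested. The AP-1 median stayed between −1.35 and −0.65. A gate share computed within each library gave 494 mutant and 257 wild-type cells, and its use for the gene counts, chosen after seeing the data, gave 43 genes higher and 180 lower in mutants. No paired analysis was possible because each genotype had 1 library.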
